A study of Gallus gallus with 4 samples.

Results

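The regions described here are the condensin peaks on chicken chromosomes 6 and 7. They are every row of the SMC2 and CAP-H peak lists that names either chromosome, 413 of 10843 peaks in all. Of these, 199 of 6474 were SMC2 peaks and 214 of 4369 were CAP-H peaks. Chromosome 6 had 117 SMC2 and 131 CAP-H peaks, and chromosome 7 had 82 and 83. A further 3 peaks of each list lay on unplaced pieces assigned to chromosome 6 and were not counted.

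The lists come from DT40, a lymphoma line of chicken B cells, in which a knockout of SMC2 or of CAP-H was rescued by the same protein fused to SBP, a streptavidin-binding tag. All cells were kept in 2 ng/ml doxycycline to shut off the untagged protein, were arrested in mitosis with 500 ng/ml nocodazole and were crosslinked in 1% formaldehyde. The groups were an SMC2 pull-down and a CAP-H pull-down on streptavidin and an input of each tagged line, 1 library each. No replicate exists, so no difference has a replicate check and no test between libraries was made. The read depth behind the peaks is unknown, and the sources used here do not say whether each line is a single clone.

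Condensin is a ring-shaped complex that folds chromosomes into compact rods for cell division. SMC2 is a core ATPase subunit found in condensin I and condensin II, while CAP-H is the kleisin, the subunit that closes the ring, of condensin I. A site in both lists is therefore one where the shared core and a subunit of condensin I were both recovered, and a peak marks a place where crosslinked DNA was enriched above the caller's threshold. Chromosomes 6 and 7 belong to the intermediate size class of the chicken karyotype, between the large macrochromosomes and the gene-dense microchromosomes. Coordinates are in galGal4 and counted from 1. No genome or annotation of that build was used, so sequences and genes at the peaks were not analysed here.

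Peaks were less dense on chromosome 7 than on chromosome 6. Per Mb of chromosome 6 there were 3.35 SMC2 peaks (95% exact Poisson interval 2.77 to 4.02) and 3.75 CAP-H peaks (3.14 to 4.45). Per Mb of chromosome 7 there were 2.26 SMC2 peaks (1.80 to 2.81) and 2.29 CAP-H peaks (1.82 to 2.84). These intervals, like all those below, cover counting error only, and since peaks lie in clusters they are too narrow for any other purpose. Lengths are the highest coordinate in either list, 34.9 Mb for chromosome 6 and 36.2 Mb for chromosome 7.

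Chromosomes 8 to 10, the nearest in size below them, carried more of both kinds of peak. For SMC2 the density on chromosome 6 was 0.603 times (0.486 to 0.742) that of chromosomes 8 to 10, at 3.35 against 5.56 peaks per Mb. The density on chromosome 7 was 0.407 times (0.317 to 0.517) that of chromosomes 8 to 10, and 0.232 times in the upper 50% of all SMC2 scores. For CAP-H the ratios were 0.749 (0.609 to 0.918) for chromosome 6 and 0.457 (0.356 to 0.582) for chromosome 7. Chromosome 8 alone had 4.10 CAP-H peaks per Mb (3.40 to 4.91), an interval that overlapped that of chromosome 6. Chromosomes 9 and 10 had 5.55 and 5.68. Against all other placed chromosomes, at 3.82 CAP-H peaks per Mb, the CAP-H density of chromosome 6 was 0.984 times as high (0.820 to 1.17), so the interval included 1. Among the 28 autosomes in the lists, chromosome 7 ranked 3 from the lowest for SMC2 and 5 for CAP-H, and chromosome 6 ranked 5 and 7. The larger chromosomes 1 to 5 had 1.58 to 3.59 SMC2 peaks and 1.53 to 2.90 CAP-H peaks per Mb. Low density was thus not particular to chromosomes 6 and 7, and the CAP-H density of chromosome 6 lay above that whole range. The number of copies of these chromosomes in the cells was not measured here, and its part in the densities was not tested.

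**Figure D1:**
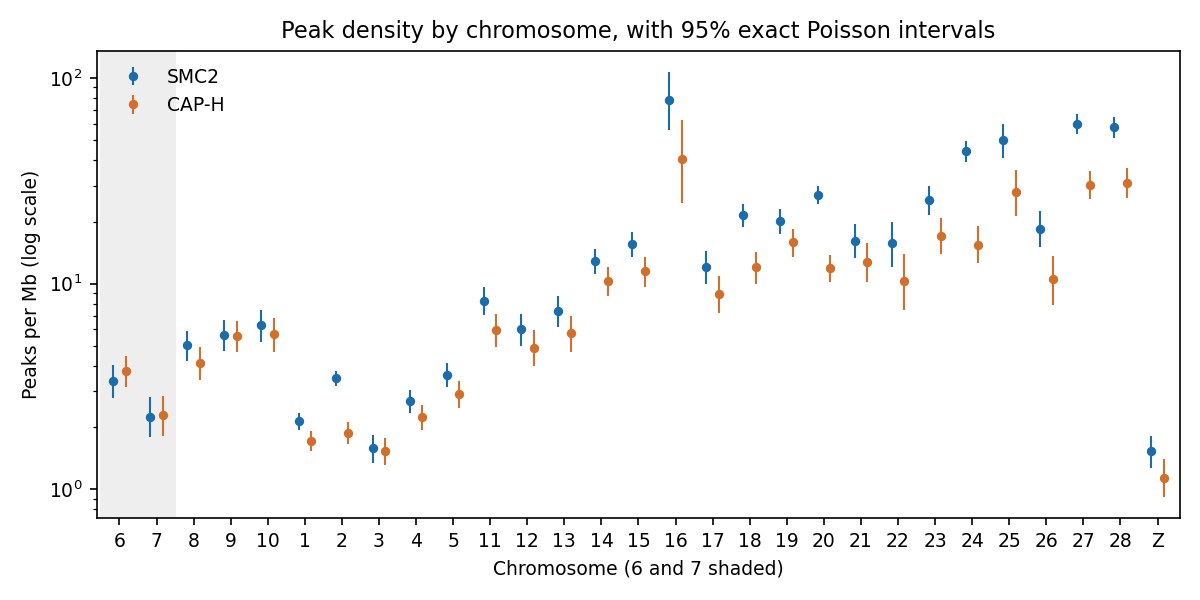
Peaks per Mb (log axis) of SMC2 and CAP-H on each chromosome, with 95% exact Poisson intervals for counting error. Chromosomes 6 and 7 (shaded) lie below chromosomes 8, 9 and 10 in SMC2 density, at 3.35 and 2.26 peaks per Mb; chromosome W, with few peaks, is not drawn.

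The lists were close in size on these chromosomes. The ratio of SMC2 to CAP-H peaks was 0.893 on chromosome 6 (exact interval 0.690 to 1.15) and 0.988 on chromosome 7 (0.719 to 1.36). The other placed chromosomes together had 1.49 (1.42 to 1.55), above both intervals. Chromosomes 8 to 10 had 1.11 (0.961 to 1.28), which overlapped both. Whether both lists were called with the same settings is unknown, and the part of the settings in these ratios was not tested.

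The arrangement along chromosome 6 was dominated by a pair of dense stretches. In windows of 1 Mb, that from 11000001 to 12000000 held 26 SMC2 and 25 CAP-H peaks, the most of either list on the chromosome. The window from 21000001 to 22000000 held 20 SMC2 and 17 CAP-H peaks, and the next, from 22000001, held 14 and 11. Windows from 10000001 and from 20000001 had 6 and 5 SMC2 peaks and 12 and 13 CAP-H peaks. Both dense stretches thus began with windows richer in CAP-H than in SMC2 peaks. Together these 5 windows held 149 of the 248 peaks, or 60.1%, in 14.3% of the length.

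Chromosome 7 had no such stretch. Its fullest window for SMC2, from 6000001 to 7000000, held 10 SMC2 and 4 CAP-H peaks. For CAP-H the windows from 7000001, 17000001 and 35000001 tied at 7 CAP-H peaks, beside 7, 2 and 4 SMC2 peaks. With both lists counted, the fullest 1-Mb window of chromosome 7 held 14 peaks, against 39, 40 and 52 on chromosomes 8, 9 and 10. Its 5 fullest windows held 63 of 165 peaks, or 38.2%, in 11.7% of the length.

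Over whole chromosomes, chromosome 6 had 1.48 times (1.11 to 1.99) the SMC2 density and 1.64 times (1.24 to 2.18) the CAP-H density of chromosome 7. In the upper 50% of all SMC2 scores the SMC2 ratio was 2.66. Without the 5 fullest windows of each, a comparison chosen after the data were seen, the ratio was 1.03 for SMC2 and 1.05 for CAP-H. The remaining SMC2 densities were 1.54 peaks per Mb on chromosome 6 and 1.50 on chromosome 7, and those of CAP-H were 1.77 and 1.69. The windows were left out because they held most peaks, so these ratios describe the remaining length and compare nothing beyond it.

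**Figure D2:**
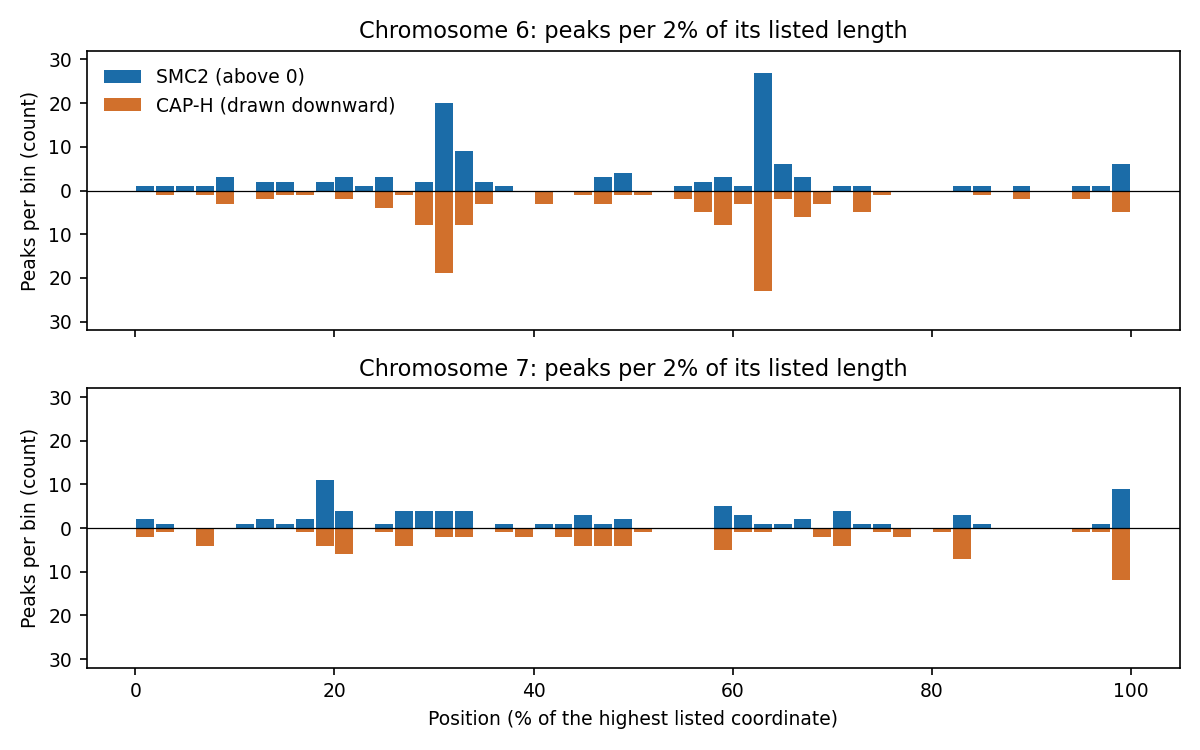
SMC2 peaks (upward bars) and CAP-H peaks (downward bars) in bins of 2% of the highest listed coordinate of chromosomes 6 and 7. On chromosome 6 the tallest bins hold 27 and 20 SMC2 peaks over 23 and 19 CAP-H peaks, while on chromosome 7 no bin exceeds 11 SMC2 or 12 CAP-H peaks.

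The peaks were chained into clusters where neighbours of either list lay at most 50 kb apart, with at least 5 peaks to a cluster. Chromosome 6 had 12 clusters. They held 134 of its 248 peaks, or 54.0%, in 0.992 Mb, which is 2.84% of its length. Chromosome 7 had 8 clusters, which held 49 of 165 peaks, or 29.7%, in 0.468 Mb, or 1.29% of its length. With a limit of 20 kb the clusters numbered 9 on chromosome 6 and 3 on chromosome 7, and with at least 10 peaks to a cluster 5 and 1. Peaks with no neighbour within 50 kb numbered 43 on chromosome 6 and 39 on chromosome 7.

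The cluster with most peaks on chromosome 6 held 17 SMC2 and 16 CAP-H peaks in 194 kb, from 11003137 to 11197423. Near its left side stood the widest CAP-H peaks of either chromosome. One of 9.60 kb, from 11017759 to 11027357, enclosed 3 SMC2 peaks, the strongest with a score of 487.32 from 11023933 to 11027242. The next, of 11.6 kb from 11027650 to 11039292, enclosed 4 SMC2 peaks with scores of 307.22, 227.94, 183.95 and 88.82. The score is the authors' own value per SMC2 peak, with a median of 74.5 over the whole list, and the CAP-H list has none. These 7 SMC2 peaks accounted for most of the 12 shared SMC2 peaks of the cluster, and its right part held unshared peaks of both lists.

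The cluster second in peaks, from 21845942 to 21913787, was more compact, with 14 SMC2 and 10 CAP-H peaks in 67.8 kb. Here 7 SMC2 and 7 CAP-H peaks were shared, and the highest score was 298.8. The cluster next in peaks on chromosome 6, from 22035367 to 22132510, had 7 SMC2 and 6 CAP-H peaks in 97.1 kb, of which 6 and 5 were shared. It contained a 6.99-kb CAP-H peak, from 22058639 to 22065629, which overlapped 2 SMC2 peaks. The stronger of these, from 22059214 to 22062908, was 3.69 kb wide and scored 307.67. Clusters did not all hold shared sites: those from 16269827 to 16360060 and from 34476361 to 34528889 had 5 peaks each and none shared.

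On chromosome 7 the cluster with most peaks lay at the right side and had 6 SMC2 and 4 CAP-H peaks in 60.2 kb, from 36181565 to 36241736. Of these, 4 SMC2 and 3 CAP-H peaks were shared. It was followed by the cluster from 9591097 to 9710548, with 4 peaks of each list in 119 kb and only 1 of each shared. The next, from 6825598 to 6884866, had 3 peaks of each list in 59.3 kb. Among them was an SMC2 peak that scored 477.14 and was 2.69 kb wide, from 6846760 to 6849448. The tightest cluster of chromosome 7 by peaks per kb, from 35537968 to 35548379, packed 2 SMC2 and 3 CAP-H peaks into 10.4 kb.

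**Figure D3:**
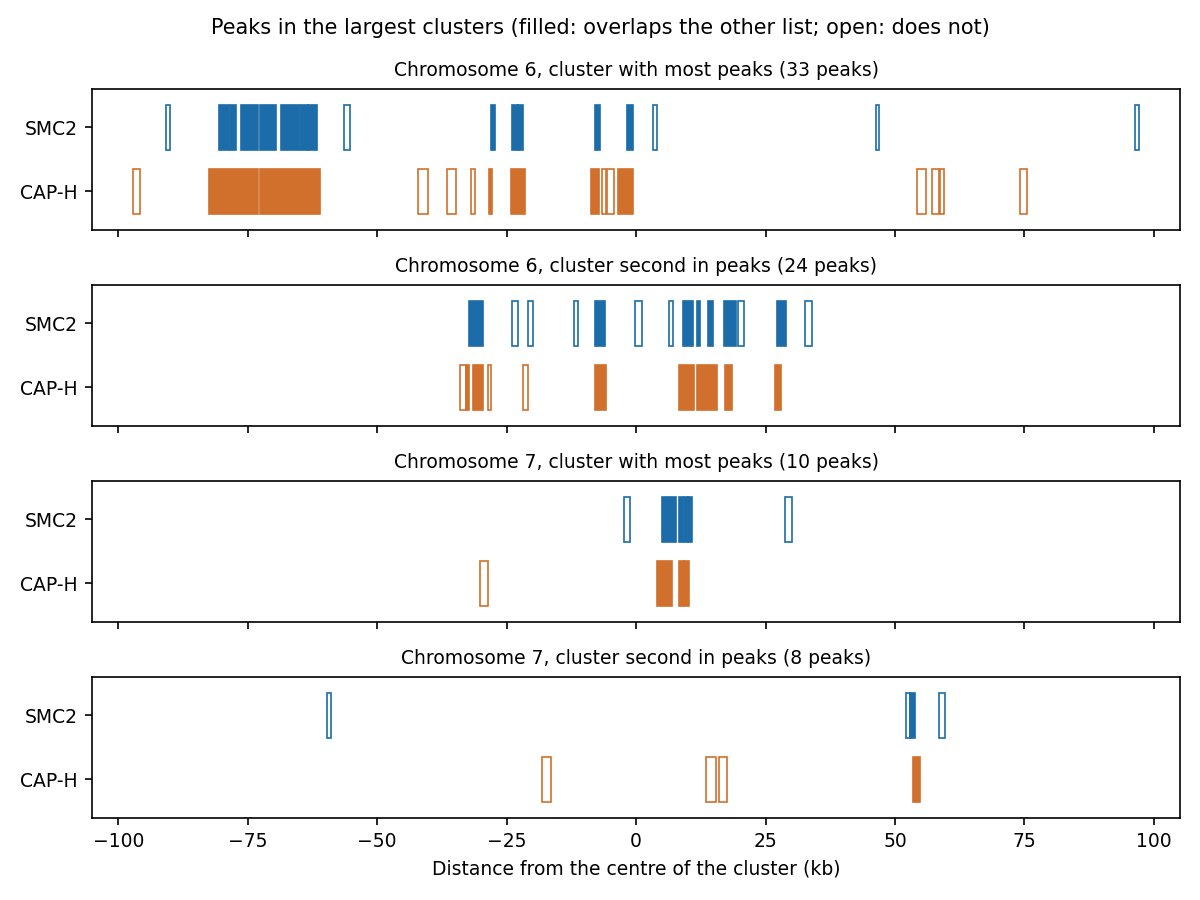
Peaks of the clusters with most peaks on chromosomes 6 and 7, as boxes at their distance in kb from the centre of the cluster; filled boxes overlap a peak of the other list and open boxes do not. In the largest cluster of chromosome 6 a pair of adjoining CAP-H peaks, of 9.60 and 11.6 kb, covers 7 SMC2 peaks, whereas the clusters of chromosome 7 hold 10 and 8 peaks in all.

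Long stretches held no peak of either list. On chromosome 6 the longest ran from 26184950 to 28746813, or 2.56 Mb. The next were of 1.91 Mb from 30950807 to 32859133, of 1.41 Mb from 17569296 to 18984280 and of 1.41 Mb from 12723288 to 14131937. The fifth was of 1.32 Mb, from 3245905 to 4570779. In all, 9 stretches of at least 1 Mb made up 13.1 Mb, or 37.4% of the length.

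On chromosome 7 the longest empty stretches were longer still. They ran from 30769228 to 34192444, or 3.42 Mb, and from 18144137 to 21174554, or 3.03 Mb. The next were of 1.52 Mb from 27903069 to 29419477, of 1.27 Mb from 7477105 to 8747830 and of 1.25 Mb from 5151095 to 6400287. The 10 stretches of at least 1 Mb made up 16.0 Mb, or 44.3% of the length. On chromosomes 8, 9 and 10 the longest stretch without a peak was 2.14, 2.15 and 2.36 Mb. On the larger chromosomes 1, 2, 3, 4 and 5 it was 4.88, 2.30, 4.46, 3.22 and 2.41 Mb. Over all 191 stretches without a peak on chromosome 6 the median length was 29.6 kb and the mean 181 kb, and over the 142 of chromosome 7 they were 66.6 and 254 kb. Where the assembly has gaps or repeats to which no read can be assigned was not analysed here, so an empty stretch is one without a listed peak and not one shown to lack condensin.

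Some stretches were empty in 1 list and held peaks of the other in part of their length. SMC2 peaks were missing from 12723288 to 16075721 on chromosome 6, a stretch of 3.35 Mb, although 4 CAP-H peaks lay within it. Its first 1.41 Mb, to 14131937, held no peak of either list. From 23222755 to 25051589, or 1.83 Mb, no SMC2 peak was listed beside 7 CAP-H peaks. On chromosome 7 CAP-H peaks were missing from 2652282 to 6432384, or 3.78 Mb, where 5 SMC2 peaks lay. The longest stretch without an SMC2 peak was on chromosome 7, from 30769228 to 35306620, or 4.54 Mb. It held 2 CAP-H peaks, and its first 3.42 Mb, to 34192444, held no peak of either list.

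The first and last listed positions carried some of the strongest SMC2 peaks. The last SMC2 peaks of chromosome 6 lay from 34897638 to 34899093, with a score of 1442.84, and from 34900182 to 34901289, with a score of 702.22, which ranked 34 and 81 among all 6474 SMC2 peaks. Each overlapped a CAP-H peak. At the last, the CAP-H peak ran from 34900184 to 34901284, so the starts differed by 2 bp and the ends by 5 bp, the only pair on either chromosome with both edges within 50 bp. The first SMC2 peak of chromosome 7, from 13994 to 17294, had a score of 681.69 and overlapped the first CAP-H peak, from 15416 to 17304. Towards the other side of chromosome 7, SMC2 peaks from 36216599 to 36219277 and from 36220873 to 36221756 had scores of 380.44 and 257.45, both with a CAP-H partner.

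The other outermost peaks were weaker or unpaired. The first SMC2 peak of chromosome 6, from 12017 to 14689, had a score of 63.89, and the nearest CAP-H peak was 1.04 Mb away. The first CAP-H peak of chromosome 6 lay from 1049759 to 1050765. On chromosome 7 the last SMC2 peak, from 36240458 to 36241736, had a score of 54.06 and no partner, 18632 bp from the last CAP-H peak, which lay from 36220883 to 36221825. The final 2% of the listed length held 6 SMC2 and 5 CAP-H peaks on chromosome 6 and 9 and 12 on chromosome 7. The first 2% held 1 SMC2 peak on chromosome 6 and 2 of each list on chromosome 7.

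With an overlap of 1 bp or more, SMC2 peaks coincided with CAP-H peaks more often on chromosome 6 than on chromosome 7. On chromosome 6, 56 of 117 SMC2 peaks, or 47.9% (exact binomial 95% interval 38.5 to 57.3), had a CAP-H partner that they overlapped by 1 bp or more, where 31.0% of all SMC2 peaks of the series did. On chromosome 7 the count was 23 of 82, or 28.0% (18.7 to 39.1), near that share, and its interval overlapped that of chromosome 6 at the edge. Of CAP-H peaks, 46 of 131 on chromosome 6 were shared, or 35.1% (27.0 to 43.9), where 42.4% of all CAP-H peaks were. On chromosome 7, 21 of 83 were, or 25.3% (16.4 to 36.0), with the whole interval below the share of the series. It overlapped the CAP-H interval of chromosome 6. A low CAP-H share was not particular to chromosome 7. Chromosomes 1 to 4 had 27.7%, 32.9%, 25.4% and 32.7%, each with its whole interval below the share of the series. Chromosome 5 had 38.2% (30.9 to 45.8), an interval that included it. On chromosomes 8 to 10, 35.7% of SMC2 peaks (31.0 to 40.6) and 35.5% of CAP-H peaks (30.5 to 40.6) were shared. When the overlap had to reach 50% of each peak, the SMC2 shares were 19.7% on chromosome 6 and 18.3% on chromosome 7, and the contrast between the chromosomes was not seen; the CAP-H shares were then 17.6% and 18.1%. With the upper 50% of SMC2 scores alone, 71.2% and 52.2% of those SMC2 peaks were shared, and 26.7% and 14.5% of CAP-H peaks. Leaving out SMC2 peaks while all CAP-H peaks are kept cannot raise the CAP-H share. The series shares of 31.0% and 42.4% hold for the 1-bp rule over all peaks. Series shares under these other rules were not computed.

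**Figure D4:**
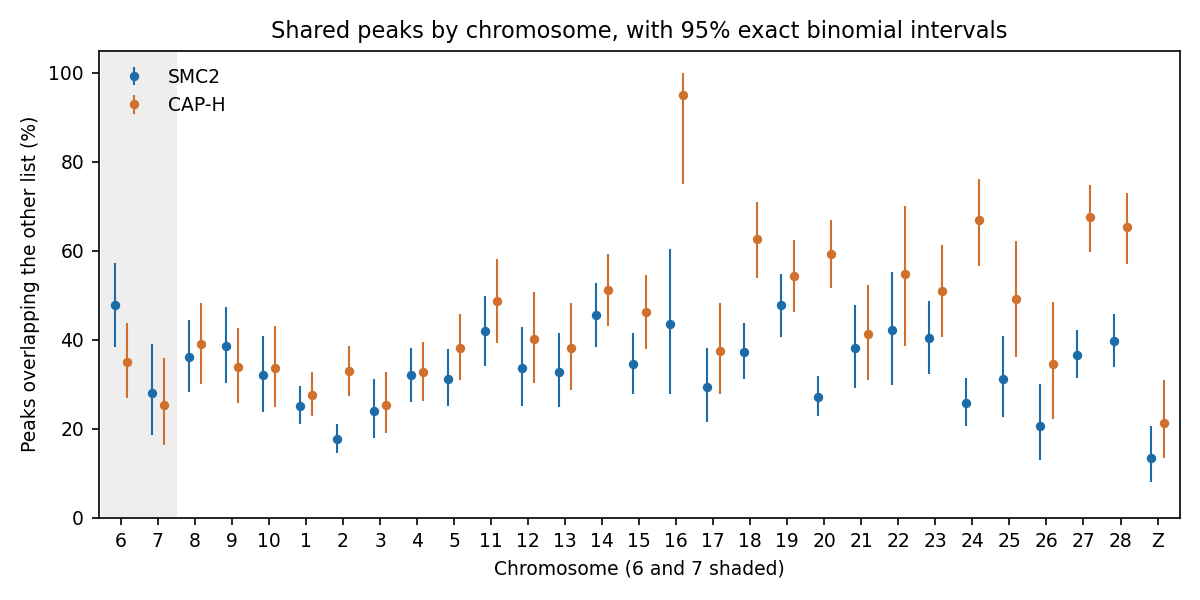
Share of SMC2 and CAP-H peaks that overlap a peak of the other list, per chromosome, with 95% exact binomial intervals. On chromosome 6 (shaded) the SMC2 share of 47.9% stands above the CAP-H share of 35.1%, and on chromosome 7 the shares are 28.0% and 25.3%; chromosome W is not drawn.

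The overlapping peaks formed 45 sites on chromosome 6 and 21 on chromosome 7. A single SMC2 peak met a single CAP-H peak at 36 of the 45 and at 19 of the 21. Several SMC2 peaks lay on 1 CAP-H peak at 8 sites of chromosome 6 and at 2 sites of chromosome 7. The reverse occurred once, on chromosome 6 from 21846967 to 21850266, where 1 SMC2 peak with a score of 298.8 met 2 CAP-H peaks. Of the 57 overlapping pairs on chromosome 6, the SMC2 peak lay wholly inside the CAP-H peak in 33, the CAP-H peak inside the SMC2 peak in 8, and the overlap was partial in 16. On chromosome 7 the counts were 8, 3 and 12 of 23 pairs. The median overlap was 1151 bp on chromosome 6, and covered a median of 48.2% of the CAP-H peak. On chromosome 7 it was 874 bp and 67.7%.

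Few peaks without a partner lay within 1 kb of the other list. On chromosome 6, 5 of the 61 unshared SMC2 peaks lay within 1 kb of a CAP-H peak and 17 lay over 100 kb away, with a median distance of 41.4 kb. On chromosome 7, 1 of 59 lay within 1 kb and 33 lay over 100 kb away, with a median of 118 kb. Unshared CAP-H peaks lay within 1 kb of an SMC2 peak in 9 of 85 cases on chromosome 6 and 3 of 62 on chromosome 7. Within 10 kb of the other list lay 17 unshared SMC2 and 22 unshared CAP-H peaks on chromosome 6, and 7 and 10 on chromosome 7. These counts include the peaks within 1 kb. Over 100 kb away were 26 CAP-H peaks on each chromosome. Series shares at these distances were not computed.

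Sharing was more frequent inside clusters. On chromosome 6, 41 of 64 SMC2 peaks in clusters were shared, or 64.1% (51.1 to 75.7), against 15 of 53 outside, or 28.3% (16.8 to 42.3). On chromosome 7 the counts were 14 of 23 in clusters, or 60.9% (38.5 to 80.3), and 9 of 59 outside, or 15.3% (7.22 to 27.0). CAP-H peaks were shared at 45.7% (33.7 to 58.1) in clusters and 23.0% (13.2 to 35.5) outside on chromosome 6, and at 50.0% (29.9 to 70.1) and 14.0% (6.26 to 25.8) on chromosome 7. Clusters were chained over both lists, so a pair of overlapping peaks counts as 2 toward the minimum of 5, and dense peaks meet by position alone more readily. These parts were not tested. Shares inside and outside clusters were not computed for other chromosomes or for the series, so the contrast cannot be called particular to chromosomes 6 and 7.

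CAP-H peaks were wider than SMC2 peaks on both chromosomes. The order was the same in the whole lists, with medians of 1380 bp for CAP-H and 1126 bp for SMC2. Whether both lists were called with the same settings is unknown, so widths may not be comparable between them. SMC2 peaks had a median width of 1071 bp on chromosome 6 (interquartile range 879 to 1439, 625 to 4740 in all) and of 909.5 bp on chromosome 7 (798 to 1134, 565 to 3796 in all). CAP-H peaks had a median of 1437 bp on chromosome 6 (1042 to 2397) and of 1303 bp on chromosome 7 (928.5 to 1796). The 95% interval of the SMC2 median was 1013 to 1168 bp on chromosome 6, which included the median of the whole list, 1126 bp, and 865 to 963 bp on chromosome 7, below it. An interval below the whole list was not particular to chromosome 7. Chromosomes 8 and 10 had SMC2 intervals of 922 to 1075 and 921 to 1056 bp, also below 1126 bp and overlapping that of chromosome 7. Chromosome 9 had 1041 to 1230 bp, which included 1126 bp. For CAP-H the intervals, 1283 to 1728 bp on chromosome 6 and 1097 to 1466 bp on chromosome 7, overlapped each other and both included the median of the whole list, 1380 bp. Peaks of at least 5 kb were 4 CAP-H peaks, all among the 131 of chromosome 6. Such wide CAP-H peaks were not particular to it, with 13 of 361 on chromosomes 8 to 10 and 155 of 3551 on the other placed chromosomes. No SMC2 peak was that wide on chromosomes 6 to 10, beside 85 of 5277 on the other placed chromosomes. SMC2 peaks covered 155 kb, or 0.443%, of chromosome 6 and 91.2 kb, or 0.252%, of chromosome 7, and CAP-H peaks 252 kb, or 0.722%, and 122 kb, or 0.336%.

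The widest peaks were mostly shared. On chromosome 6 the widest SMC2 peak, of 4.74 kb from 5481977 to 5486716, lay inside a CAP-H peak that began 20 bp before it and ended 79 bp after it. Its score was 108.31. The others among the 5 widest SMC2 peaks, of 3.40 to 3.69 kb, all had a partner, as did all 5 of the widest CAP-H peaks, of 4.87 to 11.6 kb. One of these, of 6.22 kb from 17041528 to 17047747, overlapped 2 SMC2 peaks, the stronger of 3.56 kb with a score of 364.88 from 17043406 to 17046960. On chromosome 7, 4 of the 5 widest peaks of each list were shared. The unshared ones were a 2.94-kb SMC2 peak that scored 88.87, from 24318244 to 24321185, and a 3.23-kb CAP-H peak, from 18140904 to 18144136, next to the empty stretch of 3.03 Mb.

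Median widths of shared and unshared SMC2 peaks were 1309 and 940 bp on chromosome 6 and 969 and 885 bp on chromosome 7. For CAP-H they were 2062 and 1281 bp on chromosome 6 and 1485 and 1276 bp on chromosome 7. On chromosomes 8 to 10 they were 1239 and 932 bp for SMC2 and 2047 and 1215 bp for CAP-H. On the other placed chromosomes they were 1497.5 and 1039 bp for SMC2 and 1953 and 1214.5 bp for CAP-H. Wider shared peaks were thus not particular to chromosomes 6 and 7. A wide peak meets a partner by position alone more readily than a narrow one, and the part of this in the contrast was not tested.

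SMC2 scores were lower on chromosome 7. The median score was 77.3 on chromosome 6 (interquartile range 57.4 to 113) and 61.3 on chromosome 7 (53.7 to 85.6), while the lowest, 50.69 and 50.04, lay at the bottom of the whole list. On chromosome 6, 50.4% of SMC2 peaks scored above the median of the whole list, and on chromosome 7 28.0% did. Scores of at least 100 were seen in 35 of 117 peaks on chromosome 6, or 29.9%, and in 13 of 82 on chromosome 7, or 15.9%. That share was 28.7% on chromosomes 8 to 10 and also 28.7% on the other placed chromosomes, near that of chromosome 6. On each of chromosomes 6 and 7, 2 peaks passed 500, beside 6 of 401 on chromosomes 8 to 10 and 111 of 5277 on the other placed chromosomes.

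The strongest SMC2 peak of either chromosome stood on chromosome 7 from 7335168 to 7338963, 3.80 kb wide, with a score of 1590.59 that ranked 29 in the whole list. The CAP-H peak over it, from 7335195 to 7339052, was the widest CAP-H peak of the chromosome at 3.86 kb. It covered 99.3% of the SMC2 peak. All of the 5 SMC2 peaks with the highest score on each chromosome were shared, down to 307.67 on chromosome 6 and 257.45 on chromosome 7.

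Shared SMC2 peaks had higher scores than unshared ones on both chromosomes. The medians were 98.4 (interquartile range 76.6 to 148) for shared and 60.3 (53.9 to 81.7) for unshared peaks on chromosome 6, and 95.4 (58.5 to 196) and 57.1 (52.9 to 71.0) on chromosome 7. On chromosomes 8 to 10 the medians of shared and unshared peaks were 101 and 68.7, and on all other placed chromosomes 108 and 67.1. The order was thus not particular to chromosomes 6 and 7. For peaks shared over 50% of each partner the median was 121 on chromosome 6 and 167 on chromosome 7. In 3 equal groups by score on chromosome 6, the share with a partner was 20.5% (9.30 to 36.5) in the lowest, 43.6% (27.8 to 60.4) in the middle and 79.5% (63.5 to 90.7) in the highest. On chromosome 7 it was 14.8% (4.19 to 33.7), 22.2% (8.62 to 42.3) and 46.4% (27.5 to 66.1). Series shares by score group were not computed, and the part of peak width in these contrasts was not tested. The strongest unshared SMC2 peak of chromosome 6, from 6555650 to 6556810, had a score of 231.08 and lay 457530 bp from any CAP-H peak. That of chromosome 7, from 10893176 to 10894419, had a score of 110.39 and lay 379472 bp away.

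**Figure D5:**
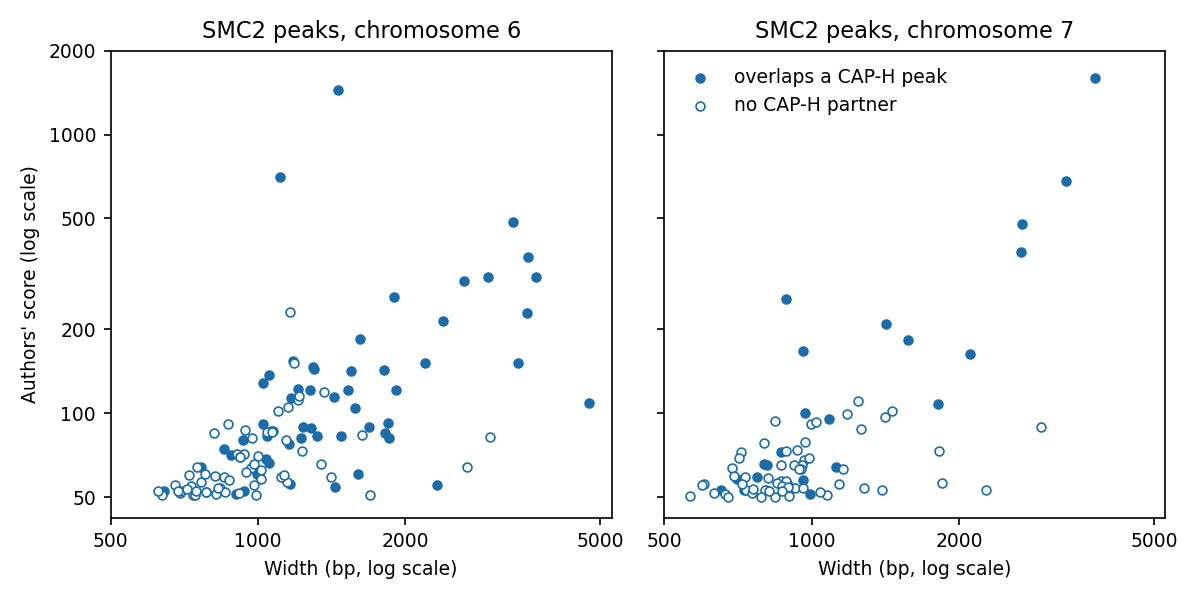
Width in bp and the authors' score of each SMC2 peak on chromosomes 6 and 7 (both axes log), filled where the peak overlaps a CAP-H peak. The highest scores, up to 1442.84 on chromosome 6 and 1590.59 on chromosome 7, all belong to shared peaks. Of unshared peaks, 7 on chromosome 6 and 2 on chromosome 7 score 100 or more, the highest 231.08, and the widest measures 2971 bp.

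Score and width rose together across peaks, with a Spearman correlation of 0.69 over 117 SMC2 peaks of chromosome 6 and of 0.53 over 82 of chromosome 7, a description of peaks that share 1 library. The Pearson correlation of log2 values was 0.6 on chromosome 6 and 0.71 on chromosome 7, so the order of the chromosomes depended on the measure. The last listed pair of SMC2 peaks on chromosome 6 stood away from this trend, with scores of 1442.84 and 702.22 at widths of 1456 and 1108 bp. Conversely, the SMC2 peak of 4.74 kb on chromosome 6 had a score of only 108.31.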

How the data were processed

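Each pull-down had 1 deposited peak list, per the labels from single-end reads of 50 bp. The submitters' processing notes name BWA and galGal4. Peaks bear MACS-style names, of a different form in each list. No source used here gives the caller's version, threshold or control, or says whether these were the same for both lists. The SMC2 list gives the authors' score per peak, used only within that list. The start-site profiles have no chromosome column and were not used, and input libraries were not analysed here.

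Starts in the files count from 0, since 0 occurs, and 1 was added for printing. Overlap, chaining, empty stretches and windows (by peak midpoint) were computed in Python 3.11.15 with numpy 2.4.6, pandas 2.3.3 and scipy 1.17.1 (figures: matplotlib 3.10.9). Overlap, chaining and empty stretches were tested on simulated data. Windows, merging and intervals were not. Intervals are 95% exact Poisson, Clopper-Pearson and conditional ones, and for medians binomial order-statistic ones. Regions named were, per chromosome, the 5 highest-scoring and 5 widest peaks, 3 fullest clusters, 5 longest empty stretches, fullest windows and outermost peaks; others (the tightest cluster, clusters with no shared site, the strongest unshared peaks, stretches empty in 1 list, sites with several peaks) were picked after their values were seen. The members and rules were chosen with earlier results of these data known. Other overlap rules, stricter thresholds, merging, cluster distances and window sizes were tried.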

Additional observations from a re-analysis of the deposited data

How the results depend on the processing

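Of 60 values recomputed under another choice, 33 stayed within the interval of the main value or, for counts, within 1.5 times. The other 27 did not, or were longest empty stretches, which have no interval and were set apart for any change. The cause was not tested unless named. In the upper 50% of all SMC2 scores, densities were 1.69 (chromosome 6) and 0.635 (chromosome 7) peaks per Mb, fewer by construction, chromosome 7 had 0.232 times the density of chromosomes 8 to 10, and chromosome 6 had 2.66 times that of chromosome 7. SMC2 shares there were 71.2% and 52.2%, and CAP-H shares 26.7% and 14.5%. These CAP-H shares were lower by construction, since SMC2 peaks were left out and all CAP-H peaks were kept. In the upper 50% of CAP-H widths, densities were 1.98 and 0.993. Merging peaks within 1 kb gave 3.09 CAP-H peaks per Mb on chromosome 6 and median CAP-H widths of 1757 and 1470 bp. Over all other placed chromosomes the CAP-H ratios were 0.984 and 0.600. Without the 5 fullest windows, chosen after the data were seen, the ratios of chromosome 6 to chromosome 7 were 1.03 and 1.05. When the overlap had to reach 50% of each peak, SMC2 shares were 19.7% and 18.3%, and the CAP-H share of chromosome 6 was 17.6%. Clusters of at least 10 peaks numbered 5 and 1, and with a 20-kb limit chromosome 7 had 3. The longest stretch without an SMC2 peak was 3.39 and 4.54 Mb, and without a CAP-H peak 3.35 and 3.93 Mb. No paired analysis was possible because each group has 1 library. Depth is unknown, so an absent peak may be one below the caller's threshold.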
